A study of Mus musculus with 6 samples.

Results

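The genes described here are 10 genes that mouse cells use to take up, store, release and sense iron, examined in MLE12 cells after knockdown of *Idh3α* and *Slc25a1*. They were chosen by name, and all 10 were found once each among the 54532 genes of the deposited count table. The group was put together with earlier results of the same comparison known, and *Tfrc* was among the few genes that had passed the threshold in it. The values of the comparison are therefore given as a description of where each gene stood, and they are no independent evidence for the group.

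MLE12 cells are an immortalized line of mouse lung alveolar epithelial cells, given as strain C57BL/6J, and were grown in a medium that contained transferrin, insulin, hydrocortisone, estradiol and selenium with 2% serum. The control group of 3 samples was infected with a Ctrl shRNA lentivirus, an empty vector, at an MOI of 50. The other group of 3 samples was infected at the same time with an Idh3α shRNA and a Slc25a1 shRNA lentivirus at an MOI of 50 each (knockdown below). Idh3α is the catalytic subunit of the mitochondrial isocitrate dehydrogenase, and Slc25a1 is the carrier that exports citrate from mitochondria. Both infections lasted 16 h and were followed by 80 h of culture. The knockdown cells received 2 lentiviruses, so virus load and loss of both targets cannot be told apart. Nothing in the labels says that the 3 samples of a group came from separate cultures, and the p-values then measure the spread between these samples, which may be technical.

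Iron enters most cells as transferrin bound to transferrin receptor 1 (Tfrc). In the endosome it is reduced by ferrireductases such as Steap3 and passes into the cytosol through the divalent metal transporter Slc11a2 (DMT1). Surplus iron is stored in ferritin, a cage of heavy (Fth1) and light (Ftl1) chains, and is freed when Ncoa4 carries ferritin to the lysosome, while ferroportin (Slc40a1) is the exporter of iron from cells. The iron regulatory proteins are Ireb2 (IRP2) and Aco1 (IRP1). Aco1 doubles as the cytosolic aconitase, which interconverts citrate and isocitrate when it holds an iron-sulfur cluster. In iron-poor cells these proteins bind hairpins called iron-responsive elements, which protects an mRNA when the hairpin lies in its 3′ UTR and blocks its translation when the hairpin lies in its 5′ UTR. Fbxl5 is the iron-sensing ubiquitin ligase subunit that marks Ireb2 for degradation.

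The hairpin letters were searched in the annotated UTRs of the GENCODE M21 transcripts (build GRCm38), because they are the feature through which the IRPs act on these mRNAs. The search used the sense strand and a motif of 17 bases, made of a C, 5 bases of any kind, the letters CAGTG and 6 more bases, in which the 5 bases before CAGTG and the last 5 had to pair at 4 or more of their 5 positions, G with T included. The 3′ UTR of *Tfrc*, all in exon 19 of 19, held 4 matches in 1 of its 3 protein-coding transcripts. Capitals mark the 17 bases of the motif, and 5 bases on each side are in lower case.
*Tfrc*, chr16:32631225-32631241, plus strand: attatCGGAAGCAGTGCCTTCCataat
*Tfrc*, chr16:32631604-32631620, plus strand: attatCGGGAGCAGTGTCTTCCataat
*Tfrc*, chr16:32631669-32631685, plus strand: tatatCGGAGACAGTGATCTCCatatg
*Tfrc*, chr16:32631716-32631732, plus strand: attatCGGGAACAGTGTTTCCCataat
*Slc11a2*, chr15:100395159-100395175, minus strand, 3′ UTR: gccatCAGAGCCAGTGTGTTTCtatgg
*Slc40a1*, chr1:45925471-45925487, minus strand, 5′ UTR: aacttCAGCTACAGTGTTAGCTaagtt
*Fth1*, chr19:9982738-9982754, plus strand, 5′ UTR: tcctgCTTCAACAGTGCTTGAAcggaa
*Ftl1*, chr7:45459785-45459801, minus strand, 5′ UTR: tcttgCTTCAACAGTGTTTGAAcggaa

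Of the 10 members, 2 held a match in the 3′ UTR (*Tfrc* and *Slc11a2*) and 3 in the 5′ UTR (*Slc40a1*, *Fth1* and *Ftl1*). Over all protein-coding genes with an annotated UTR of sufficient length, 4.16% held a match in the 3′ UTR and 0.996% in the 5′ UTR. The *Slc11a2* match paired at 4 of the 5 stem positions and the others at all 5. It lay in 1 of the 6 protein-coding transcripts of *Slc11a2*, and the counts per gene do not separate transcripts with the hairpin from those without it. The other 5 members showed no match, which says only that these letters are absent from the annotated UTRs.

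**Figure D1:**
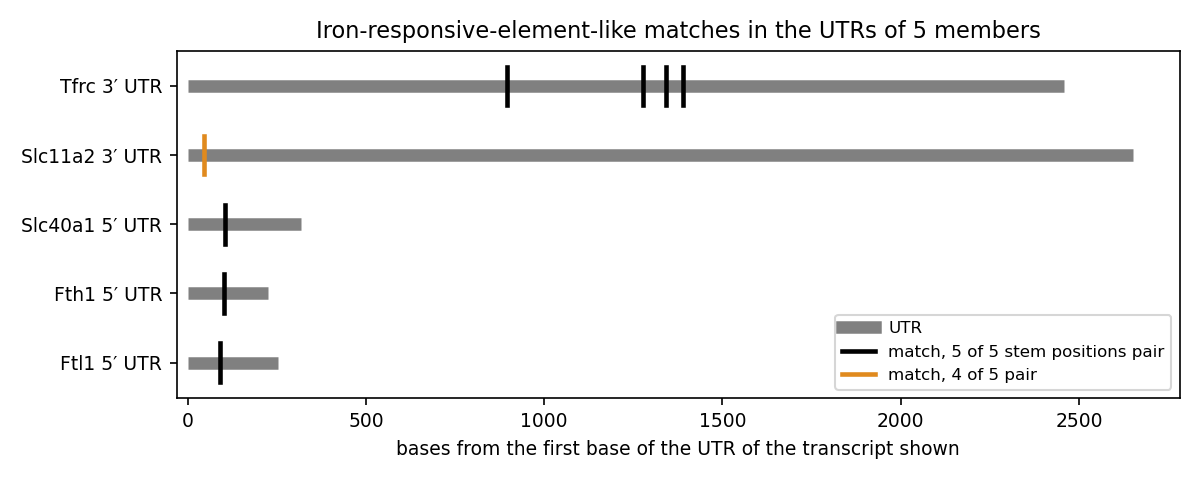
Position of each match to the hairpin motif along the UTR of 5 iron genes, in bases from the first base of the UTR, with grey bars for the UTR and strokes for the matches. *Tfrc* carries 4 matches in its 3′ UTR and the other genes carry 1 each, and the single orange stroke is the *Slc11a2* match that pairs at 4 of 5 positions.

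The total count per sample was 27273502 to 28535653, and 15307 genes had enough counts to be tested. Both targets were lower in every knockdown sample than in every control, with a log2 fold change of -0.85 ± 0.20 (SE) for *Idh3α* and -0.62 ± 0.08 (SE) for *Slc25a1* (adjusted p = 0.254 and 0.104, edgeR with Benjamini-Hochberg adjustment). Both passed the threshold of edgeR without Ctrl shRNA replicate 2, at -0.60 for *Idh3α* and -0.66 for *Slc25a1* (adjusted p = 0.0142 and 0.00649), and that of DESeq2 with all libraries (adjusted p = 0.019 and 5.26e-06). Ctrl shRNA replicate 2 stood apart, with 6.49% of its counts on mitochondrially encoded genes against 1.57% to 1.80% in the other 5 libraries and a Pearson r of at most 0.942 with any of them across genes. The fold changes of the members are therefore given with all libraries and without it. Of the alveolar type 2 markers 5 of 9 had a mean under 1 CPM (counts scaled to library size by the TMM method) and *Sftpd* had no count, while the summed level of these markers was 206 to 233 CPM in controls and 201 to 210 CPM in knockdown samples. The erythroid markers summed to 1.35 to 5.06 CPM, with *Hbb-bs*, *Hbb-bt* and *Hba-a2* at 0 counts, and the leukocyte markers to 1.65 to 1.92 CPM in controls and 2.41 to 2.76 CPM in knockdown samples, with *Ptprc*, *Adgre1* and *Itgam* at 0. The endothelial markers summed to at most 0.989 CPM. The fibroblast markers summed to 346 to 1230 CPM in controls and 317 to 344 CPM in knockdown samples, with *Col3a1* at 0, and the highest sum was in Ctrl shRNA replicate 2, where *Dcn* stood at 1211 CPM. The leukocyte and the fibroblast sums did not overlap between the groups. Among all single genes tested, 14.7% were higher and 10.7% lower without overlap. Of the 5 leukocyte markers, 4 had a mean under 1 CPM, and the fibroblast sums came as close as 346 and 344 CPM. The part of these sums in the results below was not tested.

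*Tfrc*, the receptor for transferrin iron, was 1.72-fold higher in knockdown cells, and *Slc11a2*, the endosomal iron transporter, was 1.59-fold higher but passed the threshold of edgeR only without Ctrl shRNA replicate 2. The ferritin chains, *Ncoa4*, the exporter, *Steap3*, the IRPs and *Fbxl5* did not pass it in either fit. With all 6 libraries, 1 of the 10 genes, *Tfrc*, was higher at an adjusted p under 0.05 and 0 were lower, against 0.0588% and 0.00653% of all genes tested (quasi-likelihood test of edgeR, Benjamini-Hochberg adjustment). At an unadjusted p under 0.05, 2 of the 10 were higher and 1 was lower, against 7.47% and 6.65% of all genes, and DESeq2 called 2 higher and 0 lower (1.69% and 1.12% of the genes it tested). Limma with sample quality weights also called 2 higher and 0 lower, where 8.67% and 6.34% of all genes were called. Without Ctrl shRNA replicate 2, edgeR called 2 higher, *Tfrc* and *Slc11a2*, and 0 lower, against 1.11% and 0.675% of all genes, and DESeq2 called 2 higher and 0 lower of the 9 it tested, against 4.22% and 2.84%. The median log2 fold change of the 10 genes was 0.02 with all libraries and 0.03 without that library, next to -0.01 and -0.02 over all genes tested. All 10 passed the filter on low counts.

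**Figure D2:**
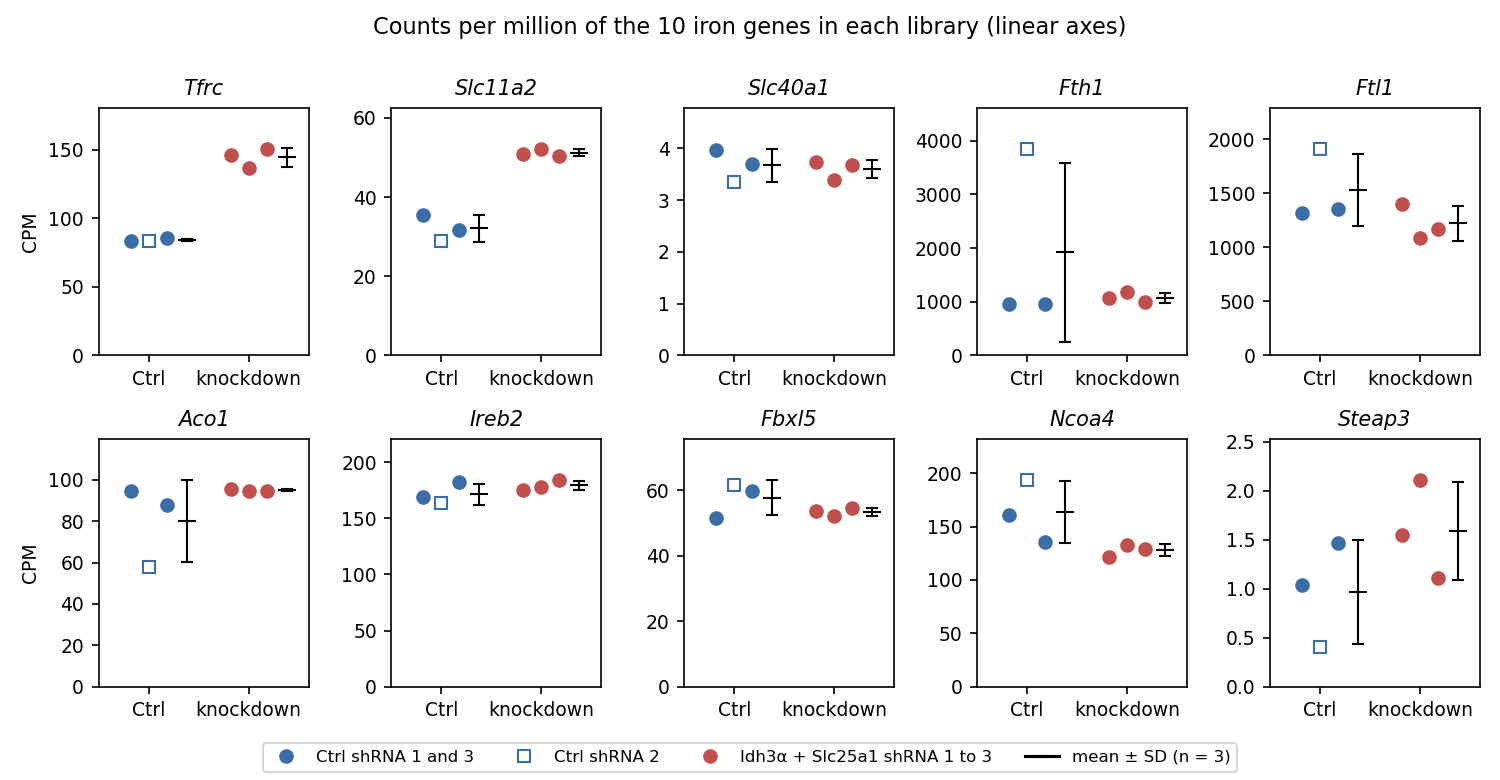
TMM-scaled CPM of each iron gene in every library on linear axes, with filled points for single libraries, an open square for Ctrl shRNA replicate 2, and bars for the mean ± SD of 3 libraries. *Tfrc* and *Slc11a2* (higher) and *Ncoa4* (lower) separate the groups without overlap, as 14.7% and 10.7% of all genes tested do in these directions, and the open square lies far above the other libraries for *Fth1* and below them for *Aco1*.

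*Tfrc* (ENSMUSG00000022797) occupies positions 32608920 to 32632794 of chromosome 16 (GRCm38, plus strand). Its CPM were 83.6, 83.9 and 85.4 for Ctrl shRNA replicates 1 to 3, against 146, 137 and 151 for knockdown replicates 1 to 3. The controls nearly coincided, and every knockdown sample was above every control. The knockdown mean was 145 ± 7.16 and the control mean 84.3 ± 0.969 CPM (SD, 3 samples each), with a log2 fold change of 0.78 (SE 0.07, 95% interval 0.58 to 0.97), or 1.72-fold. Without Ctrl shRNA replicate 2 the log2 fold change was 0.77 (SE 0.07). Although that library differed from the other controls in many genes, its *Tfrc* level was 0.993 times their mean. In edgeR, leaving out Ctrl shRNA replicate 1 or 3 or any knockdown library took *Tfrc* out of the called genes, and its log2 fold change in these fits was 0.75 to 0.82. Scaling by library size alone and a replicate block also took it out, at log2 fold changes of 0.95 and 0.78. RNA was taken from whole cultures, so a larger change in some of the cells and a smaller one in all of them cannot be told apart. CPM are relative to the library and do not give the amount of RNA per cell.

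*Slc11a2* (ENSMUSG00000023030, chromosome 15, 100387898 to 100425072, minus strand) had 35.6, 29.0 and 31.7 CPM with Ctrl shRNA and 51.0, 52.2 and 50.4 CPM after knockdown. The groups did not overlap, and the lowest control was replicate 2. The knockdown mean was 51.2 ± 0.888 and the control mean 32.1 ± 3.32 CPM (SD, 3 samples each), with a log2 fold change of 0.67 (SE 0.09, 95% interval 0.41 to 0.94), or 1.59-fold. Its adjusted p was 0.123 with all libraries and 0.0142 without Ctrl shRNA replicate 2, where the log2 fold change was 0.60 (edgeR, Benjamini-Hochberg). DESeq2 with all libraries gave 0.000123 (Benjamini-Hochberg). Over all the alternatives its log2 fold change ran from 0.59 to 0.83 and its adjusted p from 9.58e-07 to 0.675. A gene on the opposite strand, *Gm5475*, overlaps *Slc11a2* by 2926 bases, and had a mean of 1.5 counts against 1197 for *Slc11a2*.

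The ratio of 2 genes within a library does not depend on how the libraries are scaled. Per kilobase, *Tfrc* stood at 0.758, 0.786 and 0.719 times *Ireb2* in the controls and at 1.28, 1.18 and 1.26 times in the knockdown samples. *Slc11a2* stood at 0.314, 0.265 and 0.26 times *Ireb2* in the controls and at 0.434, 0.437 and 0.409 times in the knockdown samples. Both ratios separated the groups. The ratio of *Tfrc* to *Slc11a2* did not, with 2.41 to 2.97 in controls and 2.69 to 3.07 in knockdown samples. *Ireb2* itself changed little (log2 fold change 0.06), so the ratios to it restate the values of *Tfrc* and *Slc11a2*. Of all single genes tested, 14.7% had every knockdown sample above every control, and no such share was computed for ratios. In relation to the light ferritin chain, *Tfrc* stood at 0.0137, 0.00951 and 0.0137 times *Ftl1* in the controls and at 0.0226, 0.0272 and 0.0279 times in the knockdown samples.

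*Steap3* (ENSMUSG00000026389, chromosome 1, 120190757 to 120272705), the remaining uptake gene, was near the limit of detection with 8 to 64 counts per library. It ran from 0.405 to 1.46 CPM in controls and from 1.11 to 2.11 CPM in knockdown samples, and the groups overlapped. Its log2 fold change of 0.69 had an SE of 0.50 (adjusted p = 0.494, edgeR with Benjamini-Hochberg adjustment), and it was 0.34 without Ctrl shRNA replicate 2. Its 95% interval with all libraries, -0.70 to 2.09, included both 0 and the estimate for *Tfrc*. The mRNA of transferrin itself, *Trf*, had 0 to 6 counts per library.

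The ferritin chains were by far the most abundant of the 10 mRNAs. *Fth1* (ENSMUSG00000024661, chromosome 19, 9982703 to 9985092, plus strand) had 963, 3849 and 963 CPM with Ctrl shRNA and 1065, 1175 and 989 CPM after knockdown. The control values of replicates 1 and 3 nearly coincided, and replicate 2 was 4 times their mean, a ratio above that of 96.6% of the genes tested. With all libraries the log2 fold change was -0.84 (SE 0.57, 95% interval -2.42 to 0.74, adjusted p = 0.467, edgeR with Benjamini-Hochberg adjustment). Without that library its sign turned, at 0.15 (SE 0.08, 95% interval -0.11 to 0.41, adjusted p = 0.337), and the 2 remaining controls lay below all 3 knockdown samples. The share of mitochondrial counts and the level of *Dcn* were also highest in Ctrl shRNA replicate 2, and their part in the *Fth1* value was not tested.

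*Ftl1* (ENSMUSG00000050708, chromosome 7, 45457944 to 45459884, minus strand) had 1322, 1910 and 1354 CPM with Ctrl shRNA and 1401, 1091 and 1170 CPM after knockdown. The groups overlapped, and the highest value was again that of Ctrl shRNA replicate 2. Its log2 fold change was -0.32 (SE 0.19, 95% interval -0.86 to 0.21), and -0.14 (95% interval -0.46 to 0.18) without that library (adjusted p = 0.417 and 0.460, edgeR with Benjamini-Hochberg adjustment). Per kilobase, heavy chain mRNA was 1.13, 3.12 and 1.10 times light chain mRNA in the controls and 1.18, 1.67 and 1.31 times in the knockdown samples. The knockdown sample with the highest ratio, replicate 2, had the highest *Fth1* and the lowest *Ftl1* level of its group. Ferritin genes have near-identical copies, of which *Ftl1-ps1* had 4419 counts over all libraries against 226980 for *Ftl1*, so the split of reads between them is uncertain.

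The other storage gene, *Ncoa4* (ENSMUSG00000056234, chromosome 14, 32159865 to 32179855), had 161, 194 and 136 CPM with Ctrl shRNA and 121, 133 and 129 CPM after knockdown. Every knockdown sample was below every control, though the highest of them came close to the lowest control. The log2 fold change was -0.36 (SE 0.14, 95% interval -0.74 to 0.02, adjusted p = 0.351, edgeR with Benjamini-Hochberg adjustment), and -0.23 (SE 0.09, adjusted p = 0.205) without Ctrl shRNA replicate 2. Groups that did not overlap were common. Among all genes tested, 14.7% had every knockdown sample above every control, as *Tfrc* and *Slc11a2* did, and 10.7% had every knockdown sample below, as *Ncoa4* did. Without Ctrl shRNA replicate 2 these shares were 19% and 18.8%, and 3 members were above and 1 below.

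The exporter *Slc40a1* (ENSMUSG00000025993, chromosome 1, 45908068 to 45926523, minus strand) was sparse, with 66 to 123 counts per library. It ran from 3.34 to 3.97 CPM in controls and from 3.39 to 3.73 CPM in knockdown samples. Its log2 fold change was -0.03 (SE 0.16, 95% interval -0.48 to 0.42) and -0.10 without Ctrl shRNA replicate 2, and with library size alone as the scaling it was 0.13, so that no direction can be given.

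The IRPs and their regulator lay close to the same level in both groups. *Ireb2* (ENSMUSG00000032293, chromosome 9, 54863789 to 54912530) lies 259128 bases from the targeted *Idh3α*. It had 169, 163 and 182 CPM with Ctrl shRNA and 175, 178 and 184 CPM after knockdown, a log2 fold change of 0.06 (SE 0.08, 95% interval -0.15 to 0.27), and 0.02 without Ctrl shRNA replicate 2. *Aco1* (ENSMUSG00000028405, chromosome 4, 40143081 to 40198338) had 94.7, 57.7 and 88.1 CPM with Ctrl shRNA and 95.8, 94.7 and 94.7 CPM after knockdown. The low control was replicate 2, at 0.631 times the mean of the other controls, and without it the log2 fold change moved from 0.25 (95% interval -0.26 to 0.75) to 0.05 (95% interval -0.16 to 0.26). *Fbxl5* (ENSMUSG00000039753, chromosome 5, 43744615 to 43821638) had 51.7, 61.8 and 60.0 CPM with Ctrl shRNA and 53.6, 52.1 and 54.5 CPM after knockdown, with a log2 fold change of -0.11 (95% interval -0.36 to 0.14), and -0.07 without that library. The direction of *Ireb2* and that of *Fbxl5* each turned under 1 of 18 alternatives, sample quality weights and library size scaling respectively. The ratio of *Aco1* to *Ireb2* per kilobase was 1.18, 0.744 and 1.02 in controls and 1.15, 1.12 and 1.09 in knockdown samples, and the groups overlapped. For these 3 genes the intervals without Ctrl shRNA replicate 2 all lay between -0.33 and 0.26, while the interval of *Aco1* with all libraries included the estimate for *Slc11a2*.

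**Figure D3:**
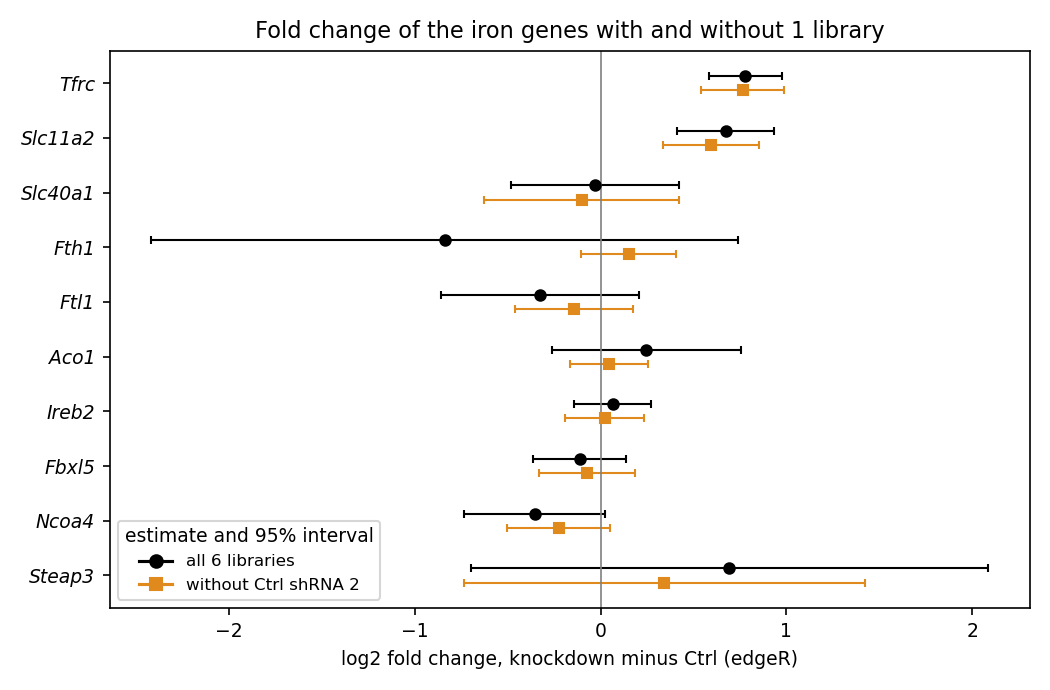
Log2 fold change of each iron gene, knockdown minus Ctrl shRNA, with its 95% interval, for all 6 libraries (black circles) and without Ctrl shRNA replicate 2 (orange squares). The intervals of *Tfrc* and *Slc11a2* lie above 0 in both fits, and the *Fth1* estimate moves from -0.84 to 0.15.

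The order of the mRNA levels was compared on the scale of CPM per kilobase of gene length. In the controls it ran *Fth1* (2220), *Ftl1* (1140), *Ireb2* (18.1), *Aco1* (17.8), *Ncoa4* (17.5), *Tfrc* (13.6), *Fbxl5* (5.94), *Slc11a2* (5.05), *Slc40a1* (0.408) and *Steap3* (0.169). The control values of *Fth1* and *Ftl1* overlapped, as did those of neighbours from *Ireb2* to *Ncoa4* and those of *Fbxl5* and *Slc11a2*. Without Ctrl shRNA replicate 2, *Fth1* (1110) and *Ftl1* (999) no longer overlapped, *Aco1* (20.3) stood above *Ireb2* (18.5), and *Fbxl5* and *Slc11a2* were the one pair of neighbours that still overlapped. In the knockdown samples *Tfrc* (23.4 ± 1.16, SD) passed 3 genes of the control order and stood above *Aco1* (21.1 ± 0.146), *Ireb2* (18.9 ± 0.46) and *Ncoa4* (13.6 ± 0.617), and *Slc11a2* (8.06 ± 0.14) stood above *Fbxl5* (5.48 ± 0.123), with no overlap between neighbours. *Tfrc* was the 4430th most abundant of the 15307 tested genes on this scale in the controls and the 2523rd in the knockdown samples, while *Slc11a2* went from rank 7959 to rank 6142. Without Ctrl shRNA replicate 2 the control ranks were 4232 for *Tfrc* and 7652 for *Slc11a2*. *Fth1* and *Ftl1* were among the 40 most abundant in both groups.

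**Figure D4:**
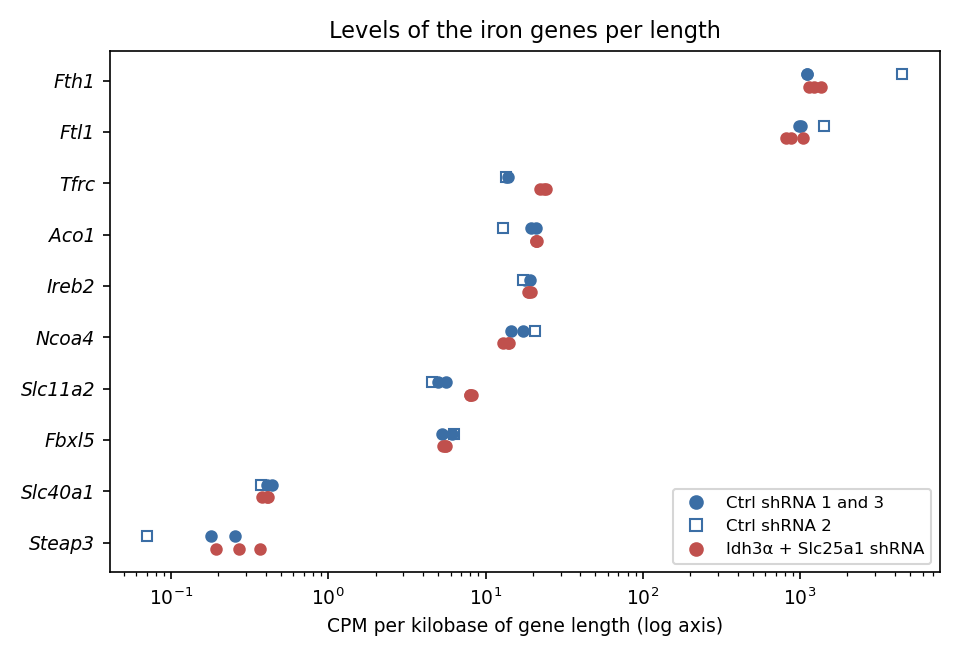
Level of each iron gene in every library as CPM per kilobase of gene length, on a log axis, with controls in blue, the open square for Ctrl shRNA replicate 2, and knockdown samples in red. The ferritin chains lie far above the other genes and *Steap3* lowest, and *Tfrc* moves from 13.6 to 23.4.

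The wider iron pathway was described with a list of 81 other genes, of which 73 were tested. None passed the threshold with all libraries in edgeR (0 higher and 0 lower), while 10 were higher and 5 lower at an unadjusted p under 0.05, where 7.47% and 6.65% of all genes were. DESeq2 called 5 higher and 1 lower of the 67 it tested, against 1.69% and 1.12% of all genes. The higher ones were *Zc3h12a*, *Cp*, *Hspa9*, *Slc39a14* and *Slc25a37* and the lower one *Ppox*, of which the last 3 are named here after their values were seen. The median log2 fold change of the list was 0.04, next to -0.01 over all genes tested. Without Ctrl shRNA replicate 2, 3 were higher and 0 were lower (edgeR, Benjamini-Hochberg), against 1.11% and 0.675% of all genes, and the median was -0.01.
Each of these 3 belonged to a different sublist. *Zc3h12a* encodes Regnase-1, a ribonuclease known to degrade *Tfrc* mRNA. It had 5.69, 5.87 and 6.76 CPM with Ctrl shRNA and 15.4, 18.6 and 14.0 CPM after knockdown, a log2 fold change of 1.39 (SE 0.15, adjusted p = 0.0935 with all libraries and 0.00795 without Ctrl shRNA replicate 2). *Cp*, the ferroxidase ceruloplasmin that acts with ferroportin, had a log2 fold change of 0.35 with all libraries (SE 0.07, adjusted p = 0.231) and 0.37 without that library (adjusted p = 0.0386). *Hspa9*, a mitochondrial chaperone used in iron-sulfur cluster assembly, had log2 fold changes of 0.40 (SE 0.08, adjusted p = 0.209) and 0.36 (adjusted p = 0.0414). These are edgeR values, adjusted by Benjamini-Hochberg over every gene tested. In all 3 genes every knockdown sample was above every control, as in 11 of the 73 tested genes of the list and 14.7% of all genes, while 8 of the 73 and 10.7% of all genes had every knockdown sample below.

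Within the sublists, the genes with the highest and lowest log2 fold change with all libraries did not pass the threshold of edgeR with or without Ctrl shRNA replicate 2, apart from *Zc3h12a* without it. Limma with sample quality weights also called *Steap4*, *Bmp6* and *Urod* at log2 fold changes of 2.49, 1.29 and -0.37 (Benjamini-Hochberg adjusted p = 0.0153, 0.0465 and 0.0344). Ctrl shRNA replicate 2 carried much of several of these values, so each is given with all libraries and then without it. Among the 11 tested genes of transferrin uptake and other import, the ferrireductase *Steap4* was highest (2.70 and 2.21, at no more than 1.45 CPM in any library), and *Ndfip1*, an adaptor for degradation of Slc11a2 protein, lowest (-0.42 and -0.17). Among the 8 of export, storage partners and the hepcidin axis, *Bmp6* (0.42 and 0.79) and *Heph* (-0.54 and -0.98) were the extremes. In heme synthesis, with 9 tested, they were *Alas2* (1.38 and 0.85, at no more than 1.02 CPM) and *Urod* (-0.68 and -0.30). In heme handling, with 8 tested, *Flvcr2* (0.37 and 0.05) and *Blvra* (-0.83 and -0.07) came close to 0 without that library, in which *Blvra* stood at 3.12 times the mean of the other controls. Among 26 genes of mitochondrial iron and iron-sulfur clusters the extremes were *Fdx1l* (0.53 and 0.02) and *Bola3* (-1.03 and -0.32). Among mRNAs of the list with a known iron-responsive element, *App* stood at 0.06 and 0.01 and *Cdc14a* at 0.28 and 0.11. The 6 RNA-binding proteins ran from *Zfp36* (0.01 and 0.02) to *Zc3h12a* (1.39 and 1.35).

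**Figure D5:**
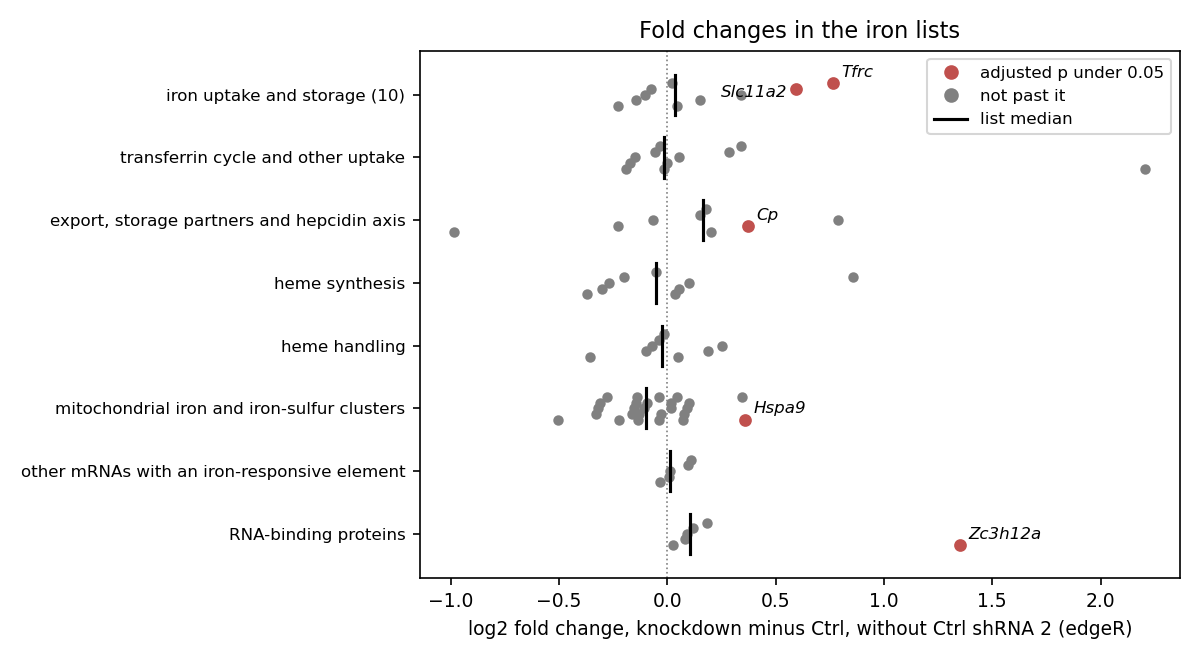
Log2 fold change, knockdown minus Ctrl shRNA, without Ctrl shRNA replicate 2, of the 10 iron genes and of the wider iron lists, 1 point per tested gene, with black strokes for list medians and red points for an adjusted p under 0.05. *Tfrc*, *Slc11a2*, *Cp*, *Hspa9* and *Zc3h12a* are the red points, and every list median lies within 0.2 of 0.

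The genes whose pattern was most like that of *Tfrc* were found by the Pearson r of log2 CPM with *Tfrc* among 15306 other genes. Over all 6 libraries these were *Rel*, *Psmb10*, *Nrg1*, *B4galt5* and *Plk2*, with r from 0.989 to 0.997. Over the 5 libraries without Ctrl shRNA replicate 2 they were *Adora1*, *Plaur*, *Elovl6*, *Psmb10* and *Rel*, with r from 0.9979 upwards. The points share the contrast of the groups, so these values describe the libraries and carry no test.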

How the data were processed

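Gene expression was measured by paired-end RNA sequencing in 6 MLE12 samples, 3 controls and 3 with both knockdowns. The authors deposited whole-number read counts per Ensembl gene without normalization, and FPKM values, which the authors scaled to gene length and to a library size 0.716 to 1.08 times the total count. The submitters' processing notes name HISAT2 2.0.5, StringTie 1.3.3b, featureCounts 1.5.0-p3 and build mm10, and the sequencing protocol names Trinity. The use of strand is not given in the sources used here. Deposited gene positions equalled those of GENCODE M21 (GRCm38) for 53499 of 54409 shared genes and for 9 of the 10 members, *Fth1* being the exception.

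Counts were filtered with filterByExpr, scaled by TMM and tested with the quasi-likelihood test of edgeR 4.0.16 in R 4.3.3, without covariates, at a Benjamini-Hochberg adjusted p under 0.05 over all genes tested. CPM values use the same factors. SE is the size of the log2 fold change divided by the square root of the F statistic, and the 95% intervals use it with 4 residual degrees of freedom (3 without Ctrl shRNA replicate 2). These intervals are not those of the edgeR test and can be wider. For *Ncoa4* the interval included 0, while the unadjusted p of the edgeR test was 0.039. An exact permutation of 3 samples against 3 cannot give a two-sided p under 0.1. All pairs of replicates differed by more than the sampling noise. The fits were also run on simulated data in which no library stood apart as Ctrl shRNA replicate 2 did. That run therefore says nothing on how the fits handle such a library. The same replicate numbers in both groups did not pair the samples.

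The members and lists were chosen with earlier results of these data known. The text names all 10 members, both targets, the genes of the wider list past the threshold of edgeR with all libraries or without Ctrl shRNA replicate 2, the extremes of each sublist, and the 5 genes most like *Tfrc*. The alternatives were other scalings, other filters on low counts, removal of mitochondrially encoded genes, a replicate block, each library left out, DESeq2 1.42.0, and limma 3.58.1 on voom values with sample quality weights or on log2(FPKM + 1) and log2(FPKM + 0.1). Figures were drawn in matplotlib 3.10.9 (Python 3.11.15).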

Additional observations from a re-analysis of the deposited data

How the results depend on the processing

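Over 28 named genes, 430 values under an alternative had the direction and the side of the threshold of the reported value, 7 lost the call (all *Tfrc*), 28 gained one and 16 turned direction. For *Tfrc* the log2 fold change ran from 0.74 to 0.95, and the call was lost under library size alone, under the replicate block and without any 1 library other than Ctrl shRNA replicate 2. Library size alone moved the median of all genes tested from -0.01 to 0.16. In edgeR with all libraries 9 genes were higher and 1 was lower, with 1 and 0 members and 0 and 0 wider iron genes. These became 175, 106, 2, 0, 3 and 0 without Ctrl shRNA replicate 2, and with each library left out in turn ran from 0 to 175, 0 to 106, 0 to 2, 0, 0 to 3 and 0. They were 216, 143, 2, 0, 5 and 1 with DESeq2, 495, 333, 2, 0, 5 and 1 with DESeq2 and Ctrl shRNA replicate 2 left out, 1327, 971, 2, 0, 8 and 6 with sample quality weights, and 1144, 1018, 2, 1, 10 and 5 at an unadjusted p under 0.05. Library size alone gave 1 higher and 0 lower genes and 0 members. No filter gave 12 higher and 3 lower genes and 1 higher wider iron gene, and log2(FPKM + 1) and log2(FPKM + 0.1) gave 3 lower genes. The cause of these moves was not tested.

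With the replicate number as a block, 0 genes were higher or lower and 0 members passed, with a log2 fold change of 0.78 for *Tfrc* and 0.68 for *Slc11a2*. The deviations of same-numbered samples correlated at -0.155, -0.092 and 0.043, so the numbers were not taken to pair the samples. Turned directions were those of *Slc40a1* at 0.13 with library size alone and at 0.04 and 0.01 without Ctrl shRNA replicate 1 or knockdown replicate 2, of *Fth1* (-1.17 to 0.15 with each library left out) at 0.15 and 0.16 in edgeR and DESeq2 without Ctrl shRNA replicate 2 and 0.08 with quality weights, of *Ireb2* (-0.0049) and *Cdc14a* (-0.02) with quality weights, and of *Fbxl5* (0.07) with library size alone. *Zfp36* was at -0.0012 with median-of-ratios factors, -0.0032 with the block, -0.10 without Ctrl shRNA replicate 3, -0.17 without knockdown replicate 2 (-0.17 to 0.11 with each library left out), and -0.00033, -0.0019 and -0.00033 on log2(FPKM + 1), log2(FPKM + 0.1) and unfiltered log2(FPKM + 1). Among the 10 members, counts were lowest for *Steap3*, at 8 to 64 per library, and *Slc40a1*, at 66 to 123.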
